A study of Homo sapiens with 36 samples.

Results

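Ribosomes on messenger RNA were compared between 2 derivatives of the human skin fibroblast line BJ, labelled EH and ELR, after a short exposure to harringtonine. The comparison rests on 4 of the 36 libraries of the series, replicates 1 and 2 of each line, chosen by their labels. The series profiled footprints and RNA in 2 cell models of transformation, the other being a breast epithelial line with an inducible Src kinase (MCF10A-ER-Src). Both BJ lines were grown alike in Knockout DMEM with serum, medium 199 and glutamine, exposed to harringtonine at 2 µg/ml for 5 min, lysed and digested with RNase I. Neither genotype is spelled out in the labels, which also do not say how the lines were selected or which promoters drive any introduced gene. As background, such BJ series carry telomerase in every line, then the SV40 early region, then an oncogenic HRAS. No label says that the replicates are separate cultures, so p-values measure only the spread between these libraries, which may be technical.

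Harringtonine binds ribosomes that have just assembled on a start codon and blocks their first steps of elongation, while ribosomes already moving along the message continue and run off. Footprints left after the drug are therefore enriched near start codons. Cycloheximide, the other drug of the series, arrests elongating ribosomes wherever they stand. The values here are sums of footprints per transcript and not heights at start codons, and no source used here says which region of the transcript was counted. BJ cells are mesenchymal cells whose best known secreted product is fibrillar collagen, the main protein of connective tissue.

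With 1 transcript kept per gene, the libraries held 144684 and 129738 counts in EH and 194065 and 215927 counts in ELR. In normalised read count (CPM, counts put on a common scale by trimmed means), 1 count is worth 7.90 and 8.91 CPM in EH and 4.46 and 4.05 CPM in ELR. COL1A1 and COL1A2, the 2 chains of type I collagen, took 6.54% and 6.74% of all counts in EH against 0.127% and 0.128% in ELR. Trimmed mean scaling allows for such a shift in composition and set the median log2 difference of all tested genes at 0.02. Scaling by library size alone moved that median to 0.42, so most harringtonine log2 differences below would be about that much higher on that scale. Under cycloheximide the same change moved the median less, from −0.0009 to 0.0995.

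The labels were checked against markers. VIM, the intermediate filament protein of mesenchymal cells, was abundant in every library, with 4361 and 4284 CPM in EH and 3201 and 3153 CPM in ELR. All 15 tested fibroblast markers of 16 were nevertheless lower in ELR, by a median of −3.29 log2 units (14 of them by library size alone), while 12.4% of all tested genes were called higher and 18% lower. Bulk libraries cannot tell fewer cells of a kind from fewer footprints per cell. Of the markers of other cell types, 9 of 20 epithelial, 8 of 12 endothelial, 9 of 13 leukocyte and 6 of 7 melanocyte genes had no count in any of the 4 libraries, among them CDH1, EPCAM, PECAM1, VWF and TYR. Summed over each list, epithelial markers gave 1541 and 1737 CPM in EH and 344 and 433 CPM in ELR, endothelial markers 276 to 332 and 103 to 158 CPM, and leukocyte markers 15.8 to 35.6 and 31.2 to 48.6 CPM. In EH the epithelial sum came mainly from DSP, the desmosomal plaque protein desmoplakin, with 1019 and 1042 CPM in EH and 8.93 and 8.09 CPM in ELR. In ELR the largest part came from KRT18, a keratin, with 356 and 365 CPM in EH and 232 and 291 CPM in ELR. LAMB3, on the same list, rose from 7.90 and 44.5 to 80.4 and 93.1 CPM. Of the 4 tested epithelial markers, 1 was called higher and 2 lower. In EH the endothelial sum came mainly from FLT1, with 332 and 267 CPM in EH and 35.7 and 48.6 CPM in ELR. TIE1 and ROBO4 went the other way. Neither had a count in EH, and in ELR they had 49.1 and 72.9 CPM and 17.9 and 36.4 CPM. The part of cells of other types in the results was not tested.

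Genes tied to the making of the lines were read next. HRAS, the small GTPase, had 5 and 0 counts in EH and 10 and 4 counts in ELR, fewer than the 10 counts in 2 libraries required for a test. TERT, the catalytic protein of telomerase (NM_198253, GRCh37 chromosome 5, 1253262 to 1295183), had 703 and 864 CPM in EH and 459.8 and 437 CPM in ELR. It was present in both lines and lower in ELR, with a log2 difference of −0.80 ± 0.15 and an adjusted p of 2.52e-06. Here and below, a log2 difference is ELR minus EH with its SE, and for named genes it stands in brackets after the gene or its levels. CDKN2A, the gene of p16, which holds the cell cycle before replication, had 1 count in each EH library and 23 and 27 counts in ELR, a ratio of 12.7 (95% interval 3.33 to 108). CDKN1A, the gene of p21, had 5 and 3 counts against 3 and 3, also fewer than a test required.

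Of 3464 genes with at least 10 counts in at least 2 of the 4 libraries, 1053 (30.4%) were called at an adjusted p under 0.05 in edgeR's quasi-likelihood test. ELR was higher for 431 (12.4%) and lower for 622 (18%), and by at least 2-fold for 258 (7.45%) and 432 (12.5%). Called or not, the ELR pair lay wholly above the EH pair for 1144 of the 3464 genes and wholly below for 1073. Pairs that do not overlap are therefore common here. Among the more abundant genes the largest differences were decreases, and most of those 12 genes belong to the matrix or the cell surface. The split moved with scaling: by library size alone 1024 genes were higher and 376 lower, so 73.1% of calls were increases against 40.9%. With the wider spread of the replicated MCF10A-ER-Src libraries in place of that of the BJ pairs, 869 (25.1%) were called, 328 higher (9.47%) and 541 lower (15.6%). A Wald test in DESeq2 called 420 (12.1%), 96 higher (2.77%) and 324 lower (9.35%).

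**Figure D1:**
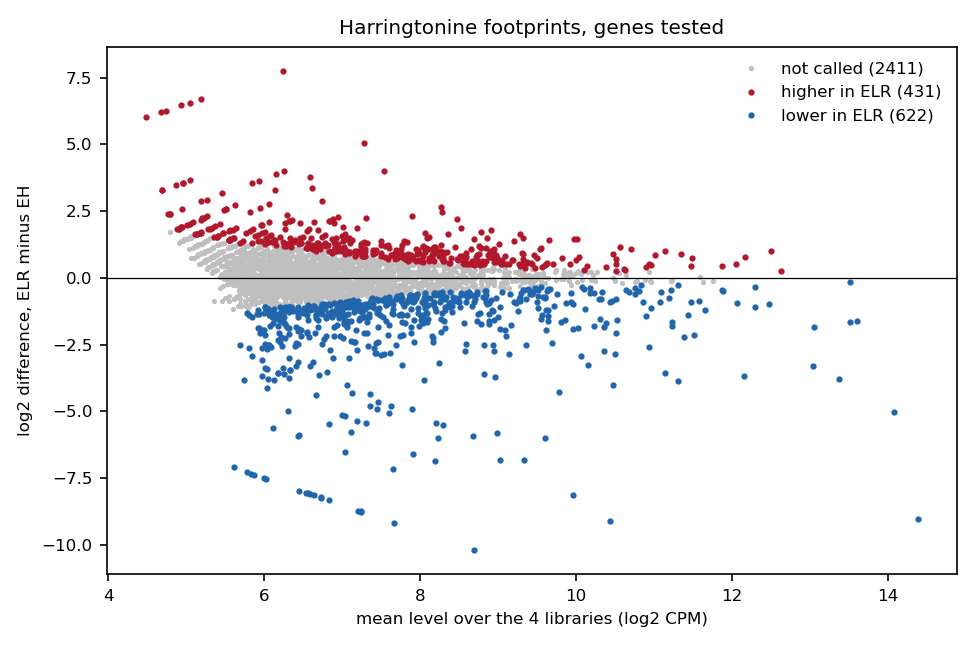
Each point is 1 of the 3464 tested genes, placed by its mean level over the 4 libraries (log2 CPM, horizontal) and its log2 difference ELR minus EH (vertical), with the 431 genes called higher in red and the 622 called lower in blue. The decreases extend to the most abundant genes, where the point at the far right is COL1A2 at −9.04, and the diagonal bands at the left are genes with few or no counts in 1 line.

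The extracellular matrix gave the clearest difference. All 12 genes of a list of collagen chains were called lower in ELR, with a median log2 difference of −3.47 against 0.02 over all genes. COL1A2, the α2 chain of type I collagen (NM_000089, GRCh37 chromosome 7, 94024207 to 94060539), had 42300.0 and 43453 CPM in EH and 71.4 and 89.0 CPM in ELR. Its partner COL1A1 (NM_000088, GRCh37 chromosome 17, 48261462 to 48278993) had 32472 and 34476 CPM against 1027 and 1028 CPM. The lines were far apart and their replicates close together: the log2 differences were −9.04 ± 0.26 and −5.02 ± 0.09, with adjusted p of 1.98e-227 and 1.64e-116 even at the wider MCF10A-ER-Src spread. The chains assemble into 1 molecule, and in ELR they were left at 1027 ± 0.894 and 80.2 ± 12.5 CPM (SD, n = 2) for COL1A1 and COL1A2.

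COL3A1, the chain of type III collagen (NM_000090, GRCh37 chromosome 2, 189839099 to 189877472), had 2623 and 2912 CPM in EH and 0 and 8.09 CPM in ELR. That ELR value is 2 counts in replicate 2, so the ratio of EH to ELR was 649.9 (95% interval 179 to 5377). Collagen VI, a microfibril built of 3 chains, fell in all 3, with log2 differences of −3.85 ± 0.13 for COL6A1, −3.69 ± 0.10 for COL6A2 and −1.65 ± 0.06 for COL6A3. COL6A3 (NM_004369, GRCh37 chromosome 2, 238232646 to 238322971) still had 5473 and 5889 CPM in ELR after 17642 and 17955 CPM in EH. COL15A1, a chain of a collagen next to basement membranes, had 458 and 338 CPM in EH and 4.46 and 0 CPM in ELR, 1 count in all.

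**Figure D2:**
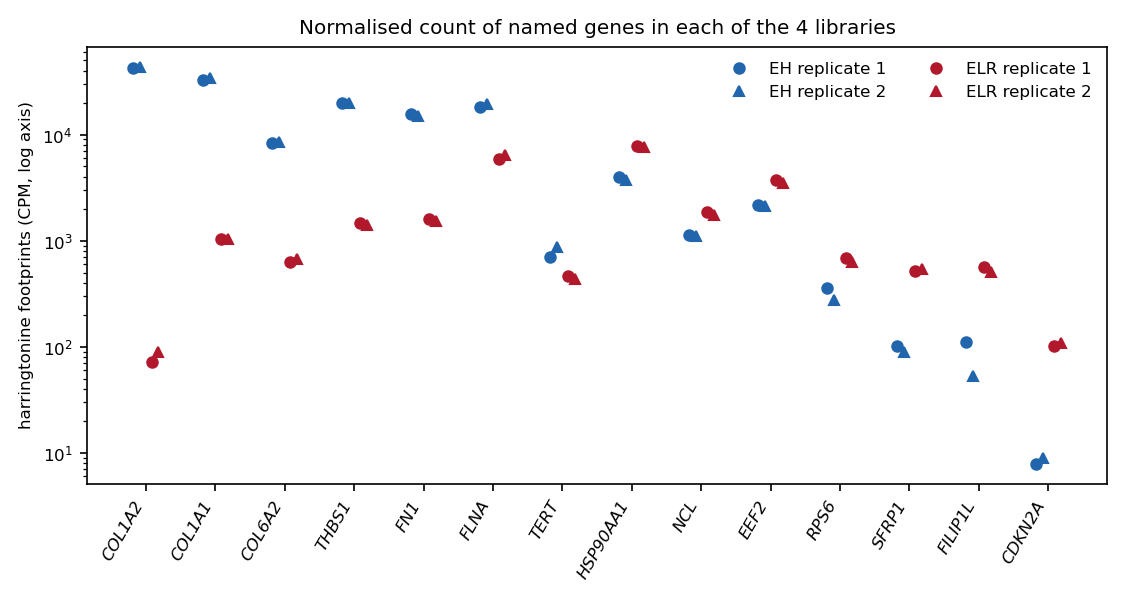
Normalised read count (CPM, log axis) of 14 named genes in each of the 4 libraries, EH in blue and ELR in red, circles for replicate 1 and triangles for replicate 2. The lines do not overlap for any gene shown, with COL1A2 from 42300.0 CPM down to 71.4 CPM at one end and CDKN2A from 7.90 up to 109 CPM at the other.

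Enzymes that finish collagen moved with it. Of 13 tested members of 14, 11 were called lower and 1 higher, with a median of −1.68. PCOLCE, which helps cleave the C-propeptide of procollagen, had 561 and 668 CPM in EH and 8.93 and 16.2 CPM in ELR, a log2 difference of −5.51 ± 0.62 (adjusted p = 1.90e-50). The crosslinking oxidases LOX (−2.50 ± 0.21) and LOXL2 (−1.70 ± 0.11) and SERPINH1, the collagen chaperone of the endoplasmic reticulum (−1.81 ± 0.27), fell as well. PLOD2, a lysyl hydroxylase named here after its value was seen, was the 1 that rose (0.91 ± 0.19).

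Matrix glycoproteins and proteoglycans fell in 23 of 24 tested members of 28, with a median of −2.57. THBS1, the adhesive glycoprotein thrombospondin 1 (NM_003246, GRCh37 chromosome 15, 39873280 to 39891667), had 19846 and 19700.3 CPM in EH and 1473 and 1404 CPM in ELR. Fibronectin, FN1 (NM_212482, GRCh37 chromosome 2, 216225163 to 216300796), had 15548 and 14971 CPM against 1585 and 1534 CPM. Both fell, with log2 differences of −3.78 ± 0.08 and −3.29 ± 0.07 and adjusted p of 5.53e-74 and 1.61e-58 at the wider spread. FBN1, the microfibril protein fibrillin 1, fell from 4448 and 4391 to 906 and 975 CPM (−2.23 ± 0.09). FBLN1, the matrix protein fibulin 1, fell from 1248 and 1300.3 to 8.93 and 12.1 CPM (−6.81 ± 0.65). The 1 tested member that did not pass was CYR61, a matricellular protein, at 363 and 267 against 402 and 308 CPM.

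Several matrix and stromal genes had no count in either ELR library. MXRA5, a matrix-remodelling protein (NM_015419, GRCh37 chromosome X, 3226606 to 3264693), had 853 and 802 CPM in EH and was at least 130.2-fold lower in ELR, reckoned against a floor of 3 counts over the ELR pair. By the same reckoning PDGFRA, the α receptor for platelet-derived growth factor, was at least 63.8-fold lower. LUM, the small proteoglycan lumican, was at least 48.0-fold lower, and CD248, a stromal surface glycoprotein, at least 46.7-fold. SPHKAP, an anchoring protein for protein kinase A, and FAP, the fibroblast activation protease, were at least 46.7- and 35.5-fold lower. In all, 19 tested genes had no count in ELR, against 7 with none in EH. Such a gene could pass the count filter only through the other line, so the filter fixed its direction. The bar of 10 counts also stood higher in EH, where 1 count was worth 7.90 and 8.91 CPM, than in ELR, at 4.46 and 4.05 CPM. The numbers 19 and 7 are therefore not a like comparison. KIAA1199, a hyaluronan-binding protein, kept 3 counts over the ELR pair, and its ratio of EH to ELR was 314 (95% interval 107 to 1526). SULF1, which trims sulphates from heparan sulphate, kept 2 counts, and its ratio was 136 (95% interval 37.0 to 1135).

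Among matrix proteases and their inhibitors, 11 of 16 tested members of 17 were lower and 2 higher, with a median of −0.93. ADAMTS1, a secreted metalloprotease, had 2647 and 2725 CPM in EH and 187 and 142 CPM in ELR (−4.03 ± 0.18). MMP2 (−4.92 ± 0.72) and MMP3 (−3.84 ± 0.41), a gelatinase and a stromelysin, fell too. MMP1, the interstitial collagenase, moved the other way, from 1454 and 1487 to 2732 and 2594 CPM (0.86 ± 0.10, adjusted p = 1.05e-18). PLAU, the urokinase plasminogen activator, rose from 15.8 and 71.2 to 174 and 231 CPM (2.26 ± 0.51). The list therefore did not move as a block: the collagenase and urokinase were higher in the line in which the gelatinase was lower.

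Of 19 tested adhesion and growth factor receptors of 23, 13 were lower and 1 higher (12 and 3 by library size alone), with a median of −1.56. ITGB1, the β1 chain of most matrix-binding integrins (NM_002211, GRCh37 chromosome 10, 33176201 to 33294720), had 4053 and 3972 CPM in EH and 1491 and 1583 CPM in ELR (−1.38 ± 0.08). CDH2, neural cadherin, and CAV1, the coat protein of caveolae, fell as well (−2.18 ± 0.19 and −1.95 ± 0.18). AXL, a receptor tyrosine kinase, had many footprints in both lines and did not pass, at 1769.7 and 1487 against 1504 and 1384 CPM.

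Actin-binding and contractile genes were called lower in 19 of 23 tested members of 26 and higher in none, with a median of −0.91. By library size alone the list split into 13 lower and 4 higher, with its median at −0.51. FLNA, which crosslinks actin filaments (NM_001110556, GRCh37 chromosome X, 153576892 to 153603002), had 18100.4 and 19424 CPM in EH and 5928 and 6387 CPM in ELR (−1.60 ± 0.06). Its relative FLNC (−0.99 ± 0.06), the adhesion protein VCL (−1.66 ± 0.14) and the cytoplasmic actin ACTG1 (−0.85 ± 0.08), whose reads can be shared with near-identical actin copies, fell too. MYH9, the heavy chain of non-muscle myosin, was among the genes with the most harringtonine footprints, at 12048 and 12754 CPM in EH and 10495 and 11539 CPM in ELR. Its small difference of −0.17 ± 0.06 was called (adjusted p = 0.0114), turned to 0.23 by library size alone and was lost without ELR replicate 1 (adjusted p = 0.18), without EH replicate 2 (adjusted p = 0.161) and at the wider spread (adjusted p = 0.54).

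The translation machinery moved in the other direction. Messages for ribosomal proteins and elongation factors begin with a run of pyrimidines, the terminal oligopyrimidine (TOP) tract, through which growth signalling by mTOR sets how well they are translated. The first 20 bases from the first start listed for each gene are shown 5′ to 3′, with capitals marking a run of at least 5 C or T that begins with C. RPL36A, RPL27, RPS6 and RPL13, the ribosomal protein genes with the smallest p, rose under harringtonine, while RPL35, RPL4 and RPL7A did not pass. FN1 and FLNA, which fell, and HSP90AA1, which rose, stand for messages outside the TOP lists. Sequences are from RefSeq on GRCh38.p14, in the strand of the gene.
RPL36A (chrX:101391011-101391030, plus strand): CTTTCTTTCCgcgccgatag
RPL27 (chr17:42998419-42998438, plus strand): agcggaagtgtCCTTCTTTC
RPS6 (chr9:19380217-19380236, minus strand): CTCTTTTCCgtggcgcctcg
RPL13 (chr16:89560657-89560676, plus strand): ccagagtgcattgcggggcc
RPL35 (chr9:124861938-124861957, minus strand): CTCTTTCCCTCggagcgggc
RPL4 (chr15:66504836-66504855, minus strand): aagcaCTTCCTTTTCCTgtg
RPL7A (chr9:133348218-133348237, plus strand): CTTTCTCTCTCCTCCCgccg
FN1 (chr2:215436049-215436068, minus strand): gcccgcgccggctgtgctgc
FLNA (chrX:154374615-154374634, minus strand): gcgtggaggcgcgtcgcgcg
HSP90AA1 (chr14:102139730-102139749, minus strand): gactgcgcaggcgtgctcac
Such a run, searched on the given strand only, stood in the first 20 bases of 65 of the 76 TOP genes with a sequence (85.5%), of 27.7% of tested genes with one and of 26.7% of all starts in the table. It opened the message at its very first base in 71.1%, 7.62% and 4.04% of them. No such run lies in this window of RPL13, FN1, FLNA or HSP90AA1. A run further in, as in RPL27 and RPL4, only says where these letters lie relative to the annotated start.

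Of 96 tested TOP genes of 98, 52 were called higher in ELR and none lower, with a median of 0.67. Ribosomal proteins took 1.48% and 1.49% of all counts in EH and 3.10% and 3.08% in ELR. The small subunit had 13 of 30 tested members called higher and the large subunit 26 of 47, with medians of 0.64 and 0.63. At the wider spread 39 of the 96 were called, and DESeq2 called 17, all higher. Ribosomal protein genes have many near-identical pseudogenes, so the split of reads between copies is uncertain.

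RPL36A, a protein of the large subunit (NM_021029, GRCh37 chromosome X, 100645812 to 100651143), had 458 and 615 CPM in EH and 1500.0 and 1437 CPM in ELR (1.46 ± 0.14, adjusted p = 2.05e-26). RPL27, another, had 150.1 and 169 CPM against 549 and 599 CPM (1.85 ± 0.26). RPS6, the small subunit protein phosphorylated in growth signalling (NM_001010, GRCh37 chromosome 9, 19375713 to 19380234), had 356 and 276 CPM against 692 and 635 CPM (1.06 ± 0.19). For all of these the ELR pair lay above the EH pair, as it did for 1144 of all 3464 tested genes. RPS27, RPS4X and RPL13 rose too (1.39 ± 0.31, 1.38 ± 0.34 and 1.00 ± 0.19). The members did not all move: RPL4 had 719 and 632 CPM in EH and 669.6 and 838 CPM in ELR, so its replicates overlapped.

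Elongation factors and the other TOP messages gave 13 called higher of 19, with a median of 0.81. EEF2, which moves the ribosome along by a codon (NM_001961, GRCh37 chromosome 19, 3976054 to 3985461), had 2181 and 2119.7 CPM in EH and 3745 and 3481 CPM in ELR (0.75 ± 0.08). BTF3, part of the complex that meets nascent chains (1.14 ± 0.11), GNB2L1, the small subunit scaffold RACK1 (1.09 ± 0.16), and NPM1, a nucleolar chaperone (0.85 ± 0.16), rose as well. Of 22 tested initiation factors of 26, 6 were higher and 3 lower, with a median of 0.41. By library size alone 13 were higher and none lower, and under cycloheximide 17 were higher and 2 lower. Over all genes 1024 of 3464 were higher by library size alone and 1165 of 3462 under cycloheximide. EIF3D (1.24 ± 0.30) and EIF3B (0.78 ± 0.19), both subunits of the factor that prepares the small subunit, rose, while EIF4G2, a relative of the cap-binding scaffold, fell from 2702 and 2440.3 to 1768 and 1821 CPM (−0.52 ± 0.09). The call of EIF3B was lost without EH replicate 2 (log2 difference 0.48, adjusted p = 0.0926), and that of EIF4G2 by library size alone (−0.12).

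Of 15 tested nucleolar genes of ribosome assembly of 18, 4 were higher, none lower and 11 not called, with a median of 0.81. Over all tested genes 12.4% were called higher and 18% lower. The DESeq2 Wald test called 2 of the 15, against 2.77% of all genes higher. Nucleolin, NCL (NM_005381, GRCh37 chromosome 2, 232318242 to 232348352), had 1138 and 1095 CPM in EH and 1866 and 1752 CPM in ELR (0.69 ± 0.11), and NOP2, a ribosomal RNA methyltransferase, rose too (2.14 ± 0.63). NOP2 had only 3 and 4 counts in EH, and the DESeq2 Wald test did not call it (adjusted p = 0.0659). Cytosolic and mitochondrial chaperones were called higher in 13 of 21 tested members of 25 and lower in none, with a median of 0.66. HSP90AA1, the inducible HSP90 (NM_001017963, GRCh37 chromosome 14, 102547079 to 102606036), had 3998 and 3696 CPM in EH and 7884 and 7609 CPM in ELR (1.01 ± 0.07). HSP90AB1 (0.89 ± 0.09), the HSP70 partner HSPH1 (1.26 ± 0.19) and CCT4, a subunit of the chaperonin that folds actin and tubulin (1.12 ± 0.20), rose with it. The spread between replicates was small beside these differences, and no replicate of 1 line reached the other for HSP90AA1, HSP90AB1, HSPH1 or CCT4. The ELR pair lay above the EH pair in this way for 1144 of all 3464 tested genes.

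Histone genes were called higher in 9 of 15 tested members of 16 and lower in none, with a median of 1.01. Linker histones had the smallest p-values: HIST1H1C (NM_005319, GRCh37 chromosome 6, 26055968 to 26056698) had 205 and 205 CPM in EH and 679 and 672 CPM in ELR (1.71 ± 0.23), and HIST1H1B rose too (1.81 ± 0.22). Histone genes are near-identical copies, so the gene a read came from is uncertain. Other gene groups of dividing cells are given beside them. Of 27 tested mitosis genes of 30, 10 were lower and none higher, with a median of −0.45, which library size alone moved to −0.05, with 5 lower and 2 higher. TOP2A, which untangles chromosomes (NM_001067, GRCh37 chromosome 17, 38544777 to 38574148), had 5886 and 5406 CPM in EH and 2915 and 2930.3 CPM in ELR (−0.95 ± 0.07), and CENPF, a kinetochore protein, fell too (−1.21 ± 0.08). Of 26 tested E2F and replication genes of 33, 3 were higher and 2 lower, with a median of 0.31 and 19 of the 26 above 0. By library size alone 16 were higher and none lower, and under cycloheximide 19 were higher and 3 lower. Over all genes 12.4% were called higher and 18% lower at the main setting. By library size alone 1024 of 3464 were higher and 376 lower, and under cycloheximide 1165 of 3462 were higher and 1210 lower. DNMT1, the maintenance DNA methyltransferase, rose (0.72 ± 0.14), while RRM2, a subunit of ribonucleotide reductase, fell (−0.57 ± 0.15), a call lost without EH replicate 2 (adjusted p = 0.088).

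**Figure D3:**
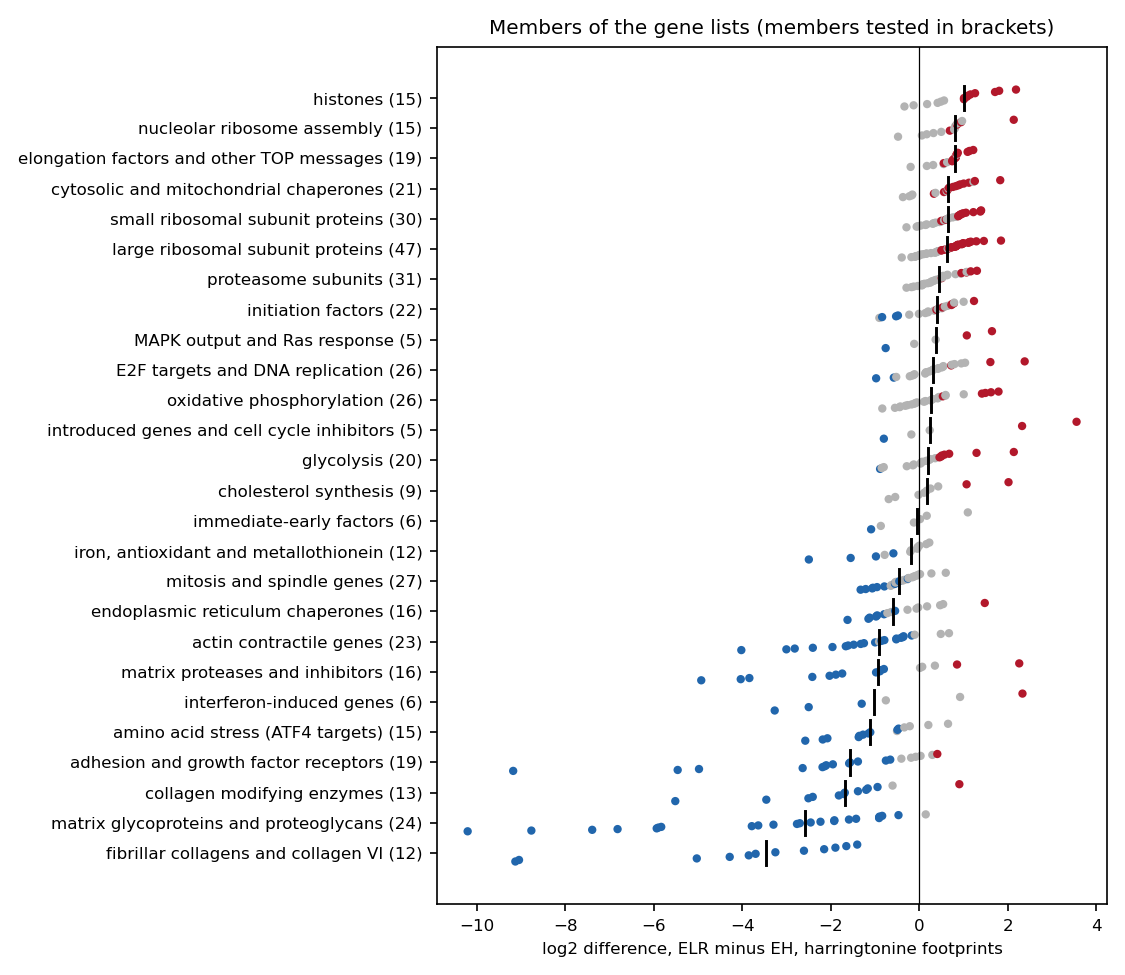
Each point is a tested member of a gene list, placed by its log2 difference ELR minus EH (horizontal). Red points were called higher, blue points lower and grey points neither, black bars mark the list medians, and brackets give the number tested. Lists run from histones, with a median of 1.01, to the collagens, at −3.47.

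Genes induced by lack of amino acids through the factor ATF4 were lower in 10 of 15 tested members of 26 and higher in none, with a median of −1.10. PSAT1, a serine synthesis enzyme (NM_058179, GRCh37 chromosome 9, 80912041 to 80945009), had 111 and 178 CPM in EH and 17.9 and 28.3 CPM in ELR (−2.57 ± 0.51). ASNS, asparagine synthetase (−2.18 ± 0.47), and the partners of an amino acid exchanger, SLC7A5 (−2.07 ± 0.45) and SLC3A2 (−1.10 ± 0.20), fell with it. In RNA, with 1 library a line and no test, the same 4 genes differed by −0.04, −0.49, 0.23 and 0.00 log2 units (pseudocount 1 CPM). The RNA median of the 15 was 0.05.

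Chaperones of the endoplasmic reticulum, where collagen folds, were lower in 7 of 16 tested members of 20 and higher in 1, with a median of −0.59. XBP1, a factor of the unfolded protein response (NM_001079539, GRCh37 chromosome 22, 29190543 to 29196585), had 695 and 730.3 CPM in EH and 223 and 239 CPM in ELR (−1.62 ± 0.19), beside an RNA difference of −0.25. CALR, the lectin chaperone calreticulin, and HSP90B1, an HSP90 of that compartment, fell (−0.79 ± 0.11 and −0.54 ± 0.10). The 1 that rose was SSR3, a subunit of the translocon-associated complex, from 142 and 142 to 397 and 401 CPM (1.48 ± 0.28). By library size alone 4 were lower and 2 higher, the list median was −0.19 and HSP90B1 was no longer called (−0.14).

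In the metabolic lists the number of calls moved with the scaling. Of 20 tested glycolysis genes of 24, 7 were higher and 1 lower (12 and none by library size alone), with a median of 0.19. HK2, an inducible hexokinase, rose from 23.7 and 62.3 to 201 and 174 CPM (2.14 ± 0.52) and GAPDH from 2323 and 2449 to 3277 and 3278 CPM (0.46 ± 0.08). Of 26 tested respiratory genes of 34, 5 were higher and none lower, and of 31 tested proteasome genes of 31, 5 and none. By library size alone 8 respiratory and 16 proteasome genes were higher. Over all 3464 tested genes, 12.4% were called higher at the main scaling and 1024 genes by library size alone. Of 9 tested cholesterol and fatty acid synthesis genes of 23, 2 were higher and none lower. FASN, the fatty acid synthase, had 948 and 1211 CPM in EH and 2179 and 2327 CPM in ELR (1.07 ± 0.11). Of 12 tested iron and antioxidant genes of 19, 4 were lower and none higher, led by FTH1, the ferritin heavy chain (−2.49 ± 0.50), and the metallothionein MT2A (−0.98 ± 0.23). That list's median was −0.19 and turned to 0.21 by library size alone.

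The largest increases among the more abundant genes were spread over many roles. DOCK4, an activator of Rac (NM_014705, GRCh37 chromosome 7, 111366166 to 111846462), had 7.90 and 8.91 CPM in EH, 1 count in each library, and 299 and 308 CPM in ELR, a ratio of 36.3 (95% interval 9.85 to 302). PODXL, the sialomucin podocalyxin, had 7.90 and 35.6 CPM against 326 and 372 CPM (4.02 ± 0.68). SFRP1, a secreted inhibitor of Wnt ligands (NM_003012, GRCh37 chromosome 8, 41119481 to 41166992), had 103 and 89.1 CPM against 518 and 538 CPM (2.45 ± 0.32). FILIP1L, a filamin-interacting protein (2.67 ± 0.34), NEDD4L, a ubiquitin ligase (2.32 ± 0.36), and AOX1, aldehyde oxidase (2.25 ± 0.44), rose as well. PLXNA2, a semaphorin receptor (2.04 ± 0.50), MOXD1, a relative of dopamine hydroxylase (2.14 ± 0.52), and HIST1H2BD (2.19 ± 0.52) were among them too, as were PLAU and HK2. CLDN11, a tight junction claudin, had no count in EH and 156 and 146 CPM in ELR, at least 12-fold higher. SCARB1, a lipoprotein receptor, ESM1, a secreted proteoglycan, and TIE1, a receptor kinase known from endothelium, were at least 5.75-, 5.24- and 4.90-fold higher. Like CLDN11, they could pass the count filter only through ELR.

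Most members of the signalling lists did not reach the filter of 10 counts in 2 libraries. Of 37 interferon-induced genes 6 were tested, and IFITM3 (−2.50 ± 0.24), IFITM2 (−3.26 ± 0.39) and B2M (−1.30 ± 0.31) fell while IFI44 rose (2.33 ± 0.67). The other 2 tested were not called. IFITM2 and IFITM3 are near-identical, so their reads may be shared. B2M, the light chain of class I antigen molecules, had 261 and 240.5 CPM in EH and 58.0 and 142 CPM in ELR, and its call was lost without ELR replicate 1 (−0.82, adjusted p = 0.0831). Of 25 inflammatory mediators 1 was tested: IL1B, the cytokine interleukin 1β, had no count in EH and 58.0 and 48.6 CPM in ELR, at least 4.23-fold higher. With no count in EH, IL1B could pass the count filter only through ELR. Of 23 genes of MAPK output and Ras response, 5 were tested, with 2 called higher, 1 lower and 2 neither. PHLDA1, a feedback gene of growth signalling, rose from 292 and 312 to 942 and 947 CPM (1.65 ± 0.19), EPHA2, an ephrin receptor, rose (1.08 ± 0.26), and CCND1, cyclin D1, fell (−0.76 ± 0.24), a call lost without EH replicate 1 (adjusted p = 0.106) or ELR replicate 2 (adjusted p = 0.232). The untested members did not reach the count filter, which does not show that they did not differ. TMEM158, a gene induced by Ras, had 1 and 2 counts in EH and 9 and 25 in ELR. DUSP4, a MAPK phosphatase, had 0 and 0 against 8 and 6, and IL8, the chemokine interleukin 8, 0 and 0 against 7 and 12. These 3 were chosen after their values were seen.

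The line labelled EL, with 174374 and 172104 counts, was read beside the pair after all 6 libraries were scaled together. For COL1A2, FN1 and HSP90AA1 its level lay between those of EH and ELR, but not at the same place along the way. COL1A2 had 42773 CPM in EH, 5826 ± 67.9 CPM (SD, n = 2) in EL and 81.9 CPM in ELR. FN1 had 15225, 11959.8 ± 234 and 1591 CPM, so most of its footprints were still there in EL. HSP90AA1 had 3839, 4916 ± 82.4 and 7904 CPM. For CDKN2A, at 8.38, 105 ± 13.2 and 108 CPM, EL and ELR lay together, and for PHLDA1, at 301, 287 ± 47.2 and 964 CPM, EL lay with EH. IFITM3 and B2M were highest in EL, at 938 ± 14.3 and 459 ± 29.1 CPM. These steps share libraries with the ELR and EH values and were not tested.

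Libraries of the same lines made under cycloheximide (100 µg/ml for 90 s) gave a second reading from separate samples. Of 9561 genes tested there, 5200 (54.4%) were called, 2507 higher (26.2%) and 2693 lower (28.2%). Of the 3462 genes tested under both drugs, 1052 were called under harringtonine and 2375 under cycloheximide. Of these 3462 genes, 978 were called under both, and 971 of the 978 in the same direction. The 971 are 92.3% of the harringtonine calls and 40.9% of the cycloheximide calls. Over genes, which are not independent replicates, the log2 differences had a Pearson r of 0.90 and a Spearman rho of 0.80. Under cycloheximide the log2 difference was −9.14 ± 0.15 for COL1A2, −4.10 ± 0.04 for THBS1, 0.98 ± 0.03 for HSP90AA1 and −2.14 ± 0.08 for PSAT1. All 96 TOP genes were called higher under cycloheximide, with a median of 1.13, against 52 and 0.67 under harringtonine and a median of 0.29 in RNA.

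A line by drug term tested whether the difference between ELR and EH was another under harringtonine than under cycloheximide. It was called for 186 genes (5.37%), with 148 (4.27%) higher and 38 (1.1%) lower under harringtonine, and its median over all genes was 0.13. Scaling by DESeq2's size factors gave 79 higher and 58 lower, and library size alone 395 and 21. The transcript of each gene was picked on the harringtonine libraries. Picked over all libraries of the series, it gave 91 higher and 50 lower, with a median of 0.05. At the wider MCF10A-ER-Src spread edgeR called 0 (0%), with 296 of 3464 at an unadjusted p under 0.05, while the Wald test in DESeq2 called 104 (3%). Leaving out EH harringtonine replicate 1, EH harringtonine replicate 2 or ELR cycloheximide replicate 1 left 86, 110 and 115.

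Several of the 8 higher genes with the smallest p encode very large proteins. FLNC (NM_001458, GRCh37 chromosome 7, 128470460 to 128499328) fell from 2029 and 2092 to 517 and 516 CPM under cycloheximide, a log2 difference of −1.99 ± 0.04, against −0.99 ± 0.06 under harringtonine, and the term was 1.08 ± 0.07 (adjusted p = 4.45e-48). COL6A3 (0.92 ± 0.06), PLEC, the linker protein plectin (0.85 ± 0.07), and AHNAK, a giant scaffold protein (0.61 ± 0.07), fell under both drugs and less under harringtonine. DYNC1H1, the heavy chain of the motor dynein (NM_001376, GRCh37 chromosome 14, 102430910 to 102522780), had 3144 and 3188 CPM in EH and 4518 and 4177 CPM in ELR under harringtonine, and 584 and 519.9 against 399.6 and 412 CPM under cycloheximide. It was thus called higher in ELR under 1 drug and lower under the other (0.99 ± 0.09), as was CLTC, the clathrin heavy chain (0.66 ± 0.07). At the wider spread the harringtonine call was lost for both (adjusted p = 0.0569 for DYNC1H1 and 0.293 for CLTC). PRKDC, the kinase of DNA end joining, rose under harringtonine (0.76 ± 0.07) beside a difference of 0.04 ± 0.05 under cycloheximide (0.81 ± 0.08). FASN, outside the 8 with the smallest p, had 1.07 ± 0.11 and 0.18 ± 0.07 (0.97 ± 0.13).

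Of the 38 genes with a lower term, 18 were ribosomal proteins, 5 of the small and 13 of the large subunit. Ribosomal proteins made up 77 of all 3464 tested genes, and their median coding length was 471 nt against 2013 nt over all of those. RPL35 had 281 ± 17.9 CPM in EH and 248 ± 2.20 CPM in ELR under harringtonine (SD, n = 2) and 843 and 879 against 1999 and 2009 CPM under cycloheximide (−1.32 ± 0.24, adjusted p = 1.13e-05). RPL4 (−0.78 ± 0.15) and RPL7A (−0.88 ± 0.17) differed in the same way, so these ribosomal proteins rose under cycloheximide and did not pass under harringtonine. For RPL7A that depended on the filter: edgeR called it higher under harringtonine with edgeR's own filter (0.41, adjusted p = 0.0417) and without one (0.50, adjusted p = 0.0347). By library size alone RPL7A (0.75) and RPL4 (0.56) were called higher. HIST1H1E (−0.80 ± 0.17) rose under both, and HIST1H3C (−1.78 ± 0.38) rose under cycloheximide and did not pass under harringtonine. SRPR, a subunit of the receptor for signal recognition particles, fell under both, with −1.34 ± 0.19 under harringtonine and −0.39 ± 0.09 under cycloheximide (−0.87 ± 0.21). EIF1, which guards the choice of start codon, was called lower under harringtonine (−0.48 ± 0.13) and higher under cycloheximide (0.22 ± 0.05). Its term was −0.62 ± 0.14, and neither that call (adjusted p = 0.0539) nor the harringtonine one (adjusted p = 0.106) held without ELR harringtonine replicate 2. The harringtonine call was also lost without EH replicate 2 (adjusted p = 0.0569), at the wider spread (adjusted p = 0.094) and by library size alone (−0.08).

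**Figure D4:**
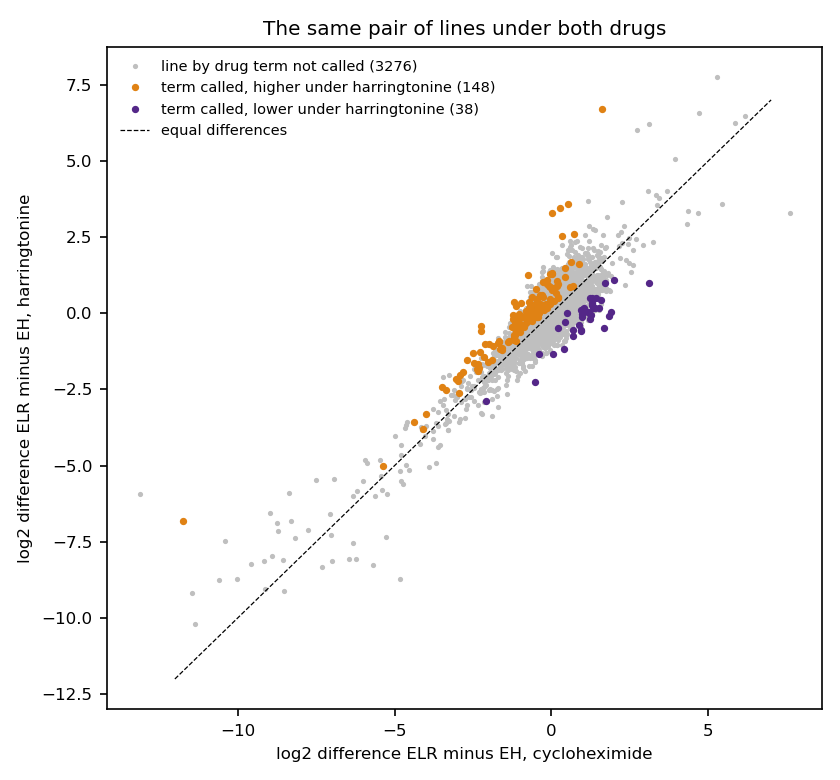
Log2 difference ELR minus EH under cycloheximide (horizontal) and under harringtonine (vertical) for genes tested in the line by drug term. Orange marks the 148 genes with a higher and purple the 38 with a lower term, and the dashed line marks equal differences. The points follow the line, with the orange set above it and the purple set below.

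The ratio of harringtonine to cycloheximide footprints rose with coding length in both lines. In 5 groups of equal size by coding length, over 3457 genes with a length, the median log2 ratio of harringtonine to cycloheximide CPM went from −1.23 in the shortest group to 2.12 in the longest in EH, and from −1.18 to 2.22 in ELR. The 148 genes with a higher term had a median coding length of 5157 nt and the 38 with a lower term 639 nt, beside 2013 nt over all of them. By group the higher calls numbered 12, 14, 15, 19 and 88 from shortest to longest, and the lower calls 30, 4, 2, 2 and 0. FLNC has 8175 nt, DYNC1H1 14016 nt and RPL35 369 nt. The part of coding length, or of the depth that long genes gain under harringtonine, in the term was not tested.

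**Figure D5:**
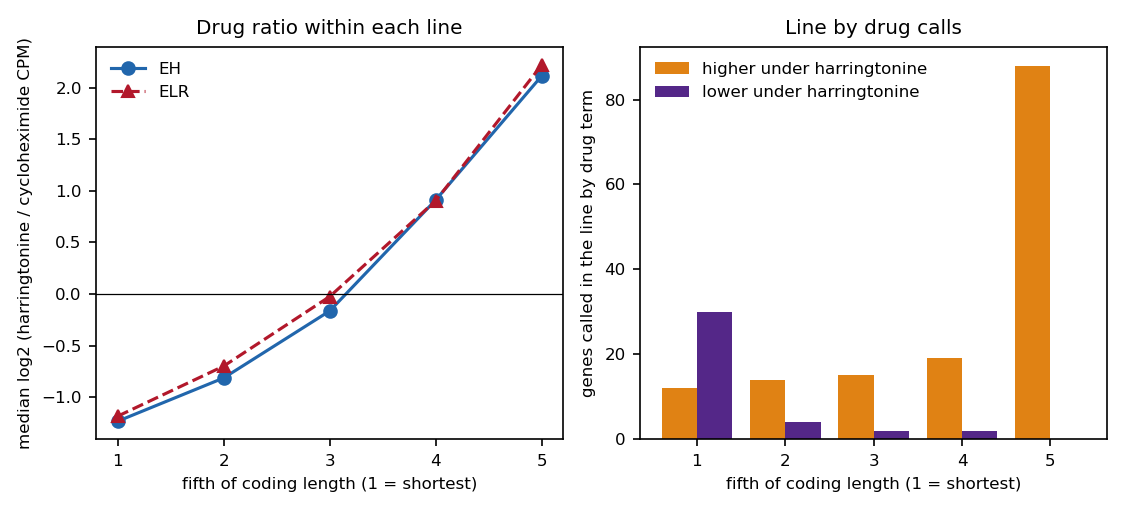
Left, the median log2 ratio of harringtonine to cycloheximide CPM in each of 5 groups of genes by coding length, 1 being the shortest, for EH (blue) and ELR (red). Right, the number of genes called in the line by drug term in each group, higher in orange and lower in purple. Both lines climb from the shortest group, at −1.23 and −1.18, to the longest, at 2.12 and 2.22, and 88 of the 148 higher calls lie in the longest group.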

How the data were processed

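Footprint counts of 4 libraries (EH and ELR, replicates 1 and 2, harringtonine) were compared. The authors deposited raw counts per transcript, from reads placed on hg19 with TopHat per the submitters' processing notes. Versions, the counting program and the region counted are not given in the sources used here. Of 36499 transcripts with 19137 gene symbols, 1 transcript per gene was kept, that with most counts on average over the 4 harringtonine libraries. The same transcripts were used for the cycloheximide and line by drug fits. Genes with at least 10 counts in at least 2 libraries were kept, scaled by trimmed means (TMM) and tested two-sided with edgeR 4.0.16 quasi-likelihood fits (limma 3.58.1, R 4.3.3) and Benjamini-Hochberg adjustment, called under 0.05. Cycloheximide libraries were tested in the same way, and a model over the libraries of both drugs gave the line by drug term. The procedure was tested on simulated data.

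Total counts of 129738 to 215927 per harringtonine library limit the precision, 1 count being worth 4.05 to 8.91 CPM. Replicates differed beyond sampling noise (chi-square per gene 1.17 in EH and 1.09 in ELR, p = 1.72e-08 and p = 0.000181 over the genes) and were counted as 2 samples each. The biological coefficient of variation was 3.23%. Folds against a line with no counts use a floor of 3 counts over the pair, and ratios on 1 to 3 counts carry a 95% binomial interval (exact Clopper-Pearson). Both cover counting error alone, because without molecular identifiers several reads may stem from 1 molecule.

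Coordinates are of GRCh37 (hg19) from GENCODE, where 18810 symbols were placed. Start sequences are from RefSeq on GRCh38.p14. Alternatives were other scalings, filters and transcripts, DESeq2 1.42.0, limma-voom, a replicate block, EL in the fit, the spread of the replicated MCF10A-ER-Src cycloheximide libraries and leaving out each library. Genes named were the 12 largest increases and decreases among called genes above the median level whose replicates did not overlap, up to 4 called members of each list by p and up to 2 others by level, up to 8 genes each way in the line by drug term, markers, HRAS, TERT, CDKN1A and CDKN2A, and up to 4 genes each way with no count in 1 line. Not every gene the rule allows is named. Members, lists and tests were chosen with earlier results of these data known.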

Additional observations from a re-analysis of the deposited data

Results flagged for a closer look

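The difference between ELR and EH was another under harringtonine than under cycloheximide for 186 genes, by the line by drug term at an adjusted p under 0.05. For 7 of them the lines were called apart in opposite directions under the 2 drugs. DYNC1H1, CLTC, TPR, a filament protein of the nuclear pore, IGF2R, the receptor for mannose 6-phosphate, and USP7, a deubiquitinase, were higher in ELR under harringtonine and lower under cycloheximide. Their terms were 0.99 ± 0.09 for DYNC1H1, 0.66 ± 0.07 for CLTC, 0.63 ± 0.13 for TPR, 0.56 ± 0.12 for IGF2R and 0.86 ± 0.23 for USP7. EIF1 and MAT2B, the regulatory subunit of methionine adenosyltransferase, were lower under harringtonine and higher under cycloheximide, with terms of −0.62 ± 0.14 and −1.50 ± 0.48. Under harringtonine MAT2B had 94.8 and 89.1 CPM in EH and 35.7 and 44.5 CPM in ELR, and under cycloheximide 85.6 and 71.4 and 96.8 and 114 CPM. TPR, IGF2R, USP7 and MAT2B fall outside the rule for named genes and were chosen after their values were seen. Leaving out 1 library ended the call of the term for TPR (0.48, adjusted p = 0.0547) and IGF2R (0.30, adjusted p = 0.327) without EH harringtonine replicate 1, for USP7 without EH harringtonine replicate 2 (0.61, adjusted p = 0.212) or ELR cycloheximide replicate 2 (0.73, adjusted p = 0.0532) and for EIF1 (−0.50, adjusted p = 0.0539) without ELR harringtonine replicate 2. The term of MAT2B lost its call without any 1 of the harringtonine libraries (−1.68 to −1.36, highest adjusted p = 0.195), without EH cycloheximide replicate 2 (adjusted p = 0.0787) and without ELR cycloheximide replicate 2 (adjusted p = 0.0634). The opposite directions rest on the harringtonine calls, and at the MCF10A-ER-Src spread all 7 of these were lost, with adjusted p of 0.0569 for DYNC1H1, 0.293 for CLTC, 0.383 for TPR, 0.319 for IGF2R, 0.127 for USP7, 0.094 for EIF1 and 0.0552 for MAT2B. Leaving out 1 harringtonine library also ended the harringtonine call of TPR (highest adjusted p = 0.378), IGF2R (0.616), USP7 (0.307), EIF1 (0.106) and MAT2B (0.257). At the spread of the MCF10A-ER-Src libraries edgeR called none of the 186, with 296 of 3464 genes at an unadjusted p under 0.05, and the DESeq2 Wald test called 104.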

How the results depend on the processing

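The DESeq2 Wald test called 420 genes under harringtonine in place of 1053, 3282 in place of 5200 under cycloheximide and 104 in place of 186 in the line by drug term. The cause was not tested. Library size alone gave 416 genes for that term and the MCF10A-ER-Src spread 0. Leaving out 1 library gave 724 to 796, 4131 to 4685 and 86 to 154. The replicate block gave 1011, 5218 and 195 calls. The differences between replicates 1 and 2 did not go together between the lines (r = 0.017 over genes, 2 pairs). With 1 difference per line, close to counting noise, that cannot tell whether same-numbered samples share more than a number. The other alternatives stayed within 1.5 times of the 3 counts. For named genes, 1968 values were recomputed under these alternatives: 1859 kept their direction and side of the threshold, 95 were no longer called, 5 became called and 9 turned sign.

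Signs turned by library size alone for MYH9 (0.23), AXL (0.22) and RPL35 (0.22). Leaving out 1 library, CYR61 ranged from −0.044 to 0.40 and HIST1H3C from −0.40 to 0.37, and RPL4 from −0.018 to 0.31. HIST1H3C had −0.026 with limma-voom. Of these 6 genes, MYH9 was the only one called under harringtonine.

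With 2 libraries a line, the spread of each rests on 1 difference. At 4.05 to 8.91 CPM per count, most interferon-induced and inflammatory genes did not reach the count filter. Without it 11151 genes were tested under harringtonine and 1050 called.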
